A study of Homo sapiens with 12 samples.

Results

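The comparison described here is the effect of ionising radiation on the messengers recovered with the cap-binding protein eIF4E from MDA-MB-231, a breast cancer line of human origin that lacks hormone receptors and HER2 amplification. It rests on the 3 arrays whose titles name an eIF4E precipitate taken 6 h after 2 Gy and the 3 whose titles name an untreated eIF4E precipitate, 6 of the 12 arrays of the series. The other 6 arrays are IgG precipitates, 3 from untreated and 3 from irradiated cells, which serve as the background of the precipitation. All 4 groups came from the same line, grown in DMEM with serum, and radiation was given as X-rays. Each precipitate was collected with a commercial kit for RNA immunoprecipitation and hybridised to 1 Affymetrix expression array, and the deposited value is a MAS5 signal, a brightness on a linear scale. All groups stand for 1 cell line, 1 dose and 1 time, and RNA of the whole lysate was not analysed here, so a change in the binding of a messenger and a change in its amount cannot be told apart. The replicates are called biological in the design text, which does not say what separated them, so the p-values measure the spread between these arrays.

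eIF4E binds the cap at the 5' end of messengers and, with the scaffold EIF4G1 and the helicase EIF4A1, brings them to the small ribosomal subunit. Its supply is held back by the binding protein EIF4EBP1, and messengers for growth and survival proteins are often described as depending on it more than housekeeping messengers do. After radiation, cells repair double strand breaks by end joining and homologous recombination, stop the cell cycle at checkpoints and, where p53 works, induce its targets. MDA-MB-231 carries mutant p53. The question put by the design is whether the messengers held by eIF4E shift after irradiation.

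The arrays carried the marks of the line. VIM, the mesenchymal filament protein, had signals of 9157 to 12529 over the 6 eIF4E arrays, and CD44, LGALS1, CAV1 and AXL were also bright. PGR, the progesterone receptor, lay at 1.06 to 3.10 and CDH1, the epithelial cadherin, at 4.10 to 20.2, both under the level needed for testing, as was ESR1, the oestrogen receptor, at 30.8 to 60.9. EPCAM, an epithelial adhesion protein listed as absent or low in this line, went against its listing with 826 to 1542. ERBB2, the HER2 receptor, listed likewise, was above the filter at 227 to 302. The trimmed mean signal was 500.2 on every array, so values compare messengers within an array and hold no amount of RNA. In untreated cells the precipitates themselves were distinct: 4230 of 7178 genes (58.9%) differed between eIF4E and IgG at an adjusted p under 0.05 in the same limma fit. Control measures differed between the antibodies too. The geometric mean of the poly-A control probe sets was 15.1 to 37.0 over the eIF4E arrays and 994 to 2493 over the IgG arrays. The 3' to 5' ratio of ACTB, a measure of RNA integrity, was 1.33 to 1.53 with eIF4E and 2.96 to 5.38 with IgG. The part of these measures in the differences between the antibodies was not tested.

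No gene passed the test for irradiation within the eIF4E precipitates. Of 7178 genes tested with limma on log2(signal + 16), 0 had an adjusted p under 0.05 (0%), and the smallest adjusted p was 1.00. An unadjusted p under 0.05 was reached by 82 genes (1.14%), 33 with higher and 49 with lower signals after irradiation. Differences were small: their median size was 0.10 on the log2 scale, 99% of genes lay within 0.53, and 35 genes (0.488%) differed by more than 1.5-fold, 13 of them higher and 22 lower. The signals of all 3 irradiated arrays lay beyond those of all 3 untreated arrays for 675 genes (9.40%), 348 upward and 327 downward. For a single gene such a separation of 3 against 3 arrays gives p = 0.1 in an exact two-sided permutation test. Over all genes 3607 differences were above zero and 3571 below.

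**Figure D1:**
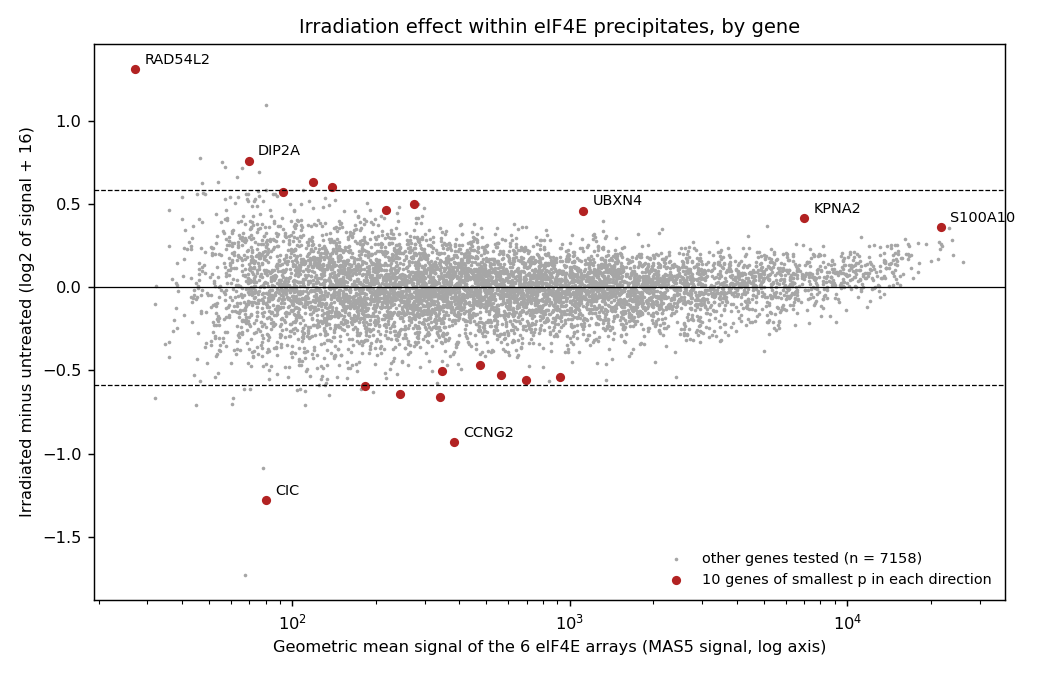
Log2 difference between irradiated and untreated eIF4E arrays (vertical, on log2 of signal + 16) against the geometric mean signal of the 6 arrays (horizontal, log axis) for the 7178 genes tested, with the 10 genes of smallest p in each direction in red and dashed lines at 1.5-fold. Most genes lie close to zero, 35 lie beyond 1.5-fold, and the genes of very high signal lie mostly above zero. This was not so after quantile normalization, which by its design removes a shift common to the brightest genes.

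The same count came from the fits closer to the eIF4E arrays. The 12-array fit shares its error with the IgG arrays, whose median within-group SD was 0.26 on the log2 scale against 0.18 for eIF4E. A fit of the 6 eIF4E arrays alone called 0 genes, with 245 at an unadjusted p under 0.05 and a smallest adjusted p of 0.994. With same-numbered arrays taken as pairs, limma again called 0 genes, 544 (7.58%) had an unadjusted p under 0.05, 227 higher and 317 lower, and the smallest adjusted p was 0.534. Adding the replicate number as a block to all 12 arrays gave 0 calls and 137 genes at an unadjusted p under 0.05. Weighting each array by its estimated quality was the setting of 22 that gave calls, CIC and RNASEH1, both lower and both with a limma adjusted p of 0.0468. That setting had 926 genes at an unadjusted p under 0.05. Its largest weights were 4.49 for untreated and 2.94 for irradiated eIF4E replicate 3.

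For many messengers the arrays were precise enough to bound the effect. The 95% interval of the 12-array fit lay wholly within 2-fold for 6798 genes (94.7%) and within 1.5-fold for 4306 (59.99%), and its bounds lay at a median of 0.41 from the estimate on the log2 scale. Precision followed brightness: with the genes cut by signal into 3 classes of equal number, 24.0% of the dimmest, 68.5% of the middle and 87.4% of the brightest class had an interval within 1.5-fold. In the fit of the eIF4E arrays alone 5333 genes (74.3%) had an interval within 1.5-fold, and with pairs 5920 (82.5%). The remaining 380 genes had an interval reaching 2-fold in the 12-array fit. For 352 of them it also included zero, and for 28, RAD54L2, CIC and CCNG2 among them, it did not, before adjustment.

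The 10 genes with higher signals and the smallest p begin with RAD54L2, a helicase-like ATPase that binds the androgen receptor. Its signals were 7.66, 19.1 and 14.9 in the untreated arrays and 71.7, 44.9 and 57.0 in the irradiated arrays, a log2 difference of 1.31 (SE 0.34). The groups did not overlap, but the untreated signals lay at the level of the other-tissue markers, whose median was 11.4 to 16.9 over the 6 arrays, and the size of the difference ranged from 0.64 to 2.04 over the alternatives. The filter runs over all 12 arrays, and RAD54L2 passed it through the IgG arrays: its mean on the log2 scale was 5.54 over the 6 eIF4E arrays and 6.88 over the IgG arrays, with the filter at 6.20. Of the 7178 genes 135 had an eIF4E mean under that level, and RAD54L2 was the member of the 20 leading genes among them. UBXN4, a membrane protein of endoplasmic reticulum degradation, had 929, 875 and 1058 in the untreated arrays and 1242, 1431 and 1273 in the irradiated arrays. All irradiated arrays lay above all untreated arrays, with a difference of 0.46 (SE 0.14), while its other probe sets differed by 0.16 and 0.13. KPNA2, the importin that carries proteins into the nucleus, had 6556, 6009 and 5652 in the untreated arrays and 9027, 7550.2 and 7749.9 in the irradiated arrays, a difference of 0.41 (SE 0.15) against 0.07 on its other probe set.

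S100A10, the partner of annexin A2 at the plasma membrane, was the brightest of the group. Its signals were 20874, 15052 and 22322 in the untreated arrays and 25992, 22684 and 25127 in the irradiated arrays, a difference of 0.36 (SE 0.14) without overlap. Untreated replicate 2 stood below its group, and without it the difference was 0.19, and under quantile normalization 0.09. CCNF, the cyclin that selects targets for an SCF ubiquitin ligase, had 203, 279 and 209 in the untreated arrays and 393, 294 and 305 in the irradiated arrays, a difference of 0.50 (SE 0.19) without overlap. Irradiated replicate 1 was the highest of the 6, and without number 1 in every group the difference was 0.29. MEIS2, a homeobox transcription factor, had 169, 198 and 183 in the untreated arrays and 254, 244 and 277 in the irradiated arrays, a difference of 0.46 (SE 0.17).

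The remaining 4 of these 10 genes were dim. IL17RA, the receptor of interleukin 17, differed by 0.63 (SE 0.23), PTDSS2, a phosphatidylserine synthase, by 0.60 (SE 0.23), and VWA8, a mitochondrial ATPase, by 0.57 (SE 0.20). Without untreated replicate 1 PTDSS2 differed by 0.37, and VWA8 by 0.31 with the mean of its probe sets. DIP2A, a disco-interacting protein, had 65.5, 65.4 and 29.2 in the untreated arrays and 78.7, 88.5 and 131 in the irradiated arrays, a difference of 0.76 (SE 0.27). Its irradiated arrays were all higher, and irradiated replicate 3 and untreated replicate 3 lay farthest apart; without the latter the difference was 0.48. None of the 10 passed the threshold in the 12-array or the paired fit, where their adjusted p lay between 0.543 and 0.649 with limma and 3 pairs.

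Among genes with lower signals CCNG2 and CIC had the largest differences of the 10 with smallest p. CCNG2, cyclin G2, which restrains the cell cycle, had 479, 657 and 493 in the untreated arrays and 288, 417 and 169.7 in the irradiated arrays, a difference of -0.93 (SE 0.26). Every irradiated array lay below every untreated array, with irradiated replicate 3 lowest (a difference of -0.61 without it), and the other probe sets of CCNG2 differed by -0.21 and -0.31. CIC, the repressor capicua, whose targets are relieved by MAPK signalling, had 127, 142 and 144 in the untreated arrays and 71.9, 35.3 and 40.3 in the irradiated arrays, a difference of -1.28 (SE 0.36). The groups did not overlap, and CIC has 1 probe set here. RNASEH1, which removes RNA from RNA-DNA hybrids, had 853, 796 and 901 in the untreated arrays and 683, 623 and 438 in the irradiated arrays, a difference of -0.56 (SE 0.17) against -0.23 on its other probe set.

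The other genes of this group included proteins of the cytoskeleton and of membrane traffic. CLIP1, which tracks growing microtubule ends, had 254, 359 and 327 in the untreated arrays and 139.6, 229 and 223 in the irradiated arrays, a difference of -0.64 (SE 0.20) without overlap. WDR44, a RAB11-binding protein of recycling endosomes, had 392, 507 and 404 in the untreated arrays and 331, 300.5 and 190.0 in the irradiated arrays, a difference of -0.66 (SE 0.20) without overlap and of -0.43 without irradiated replicate 3. ASPH, an aspartate hydroxylase of the endoplasmic reticulum, had 989, 1198 and 1173 in the untreated arrays and 623, 986 and 720.1 in the irradiated arrays, a difference of -0.54 (SE 0.16). Irradiated replicate 2 of ASPH came close to the lowest untreated array, and its second probe set above the filter differed by -0.15. With the mean of its probe sets the difference of ASPH was -0.07.

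RAB40B, a small GTPase linked to ubiquitin ligases, was the tightest of the lower group. Its signals were 572, 558 and 556 in the untreated arrays and 397, 414 and 393 in the irradiated arrays, a difference of -0.47 (SE 0.15), with a second, dimmer probe set at -0.06. SPAG16, a protein of the ciliary axoneme, differed by -0.53 (SE 0.17), C1orf216, an uncharacterised gene, by -0.50 (SE 0.17) (-0.30 without number 1 in every group), and LOC730101, an uncharacterised locus, by -0.59 (SE 0.19). Each of the 10 had non-overlapping arrays and a lower signal in all 3 pairs, and none passed the threshold. Their limma adjusted p with 3 pairs lay between 0.534 and 0.648.

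**Figure D2:**
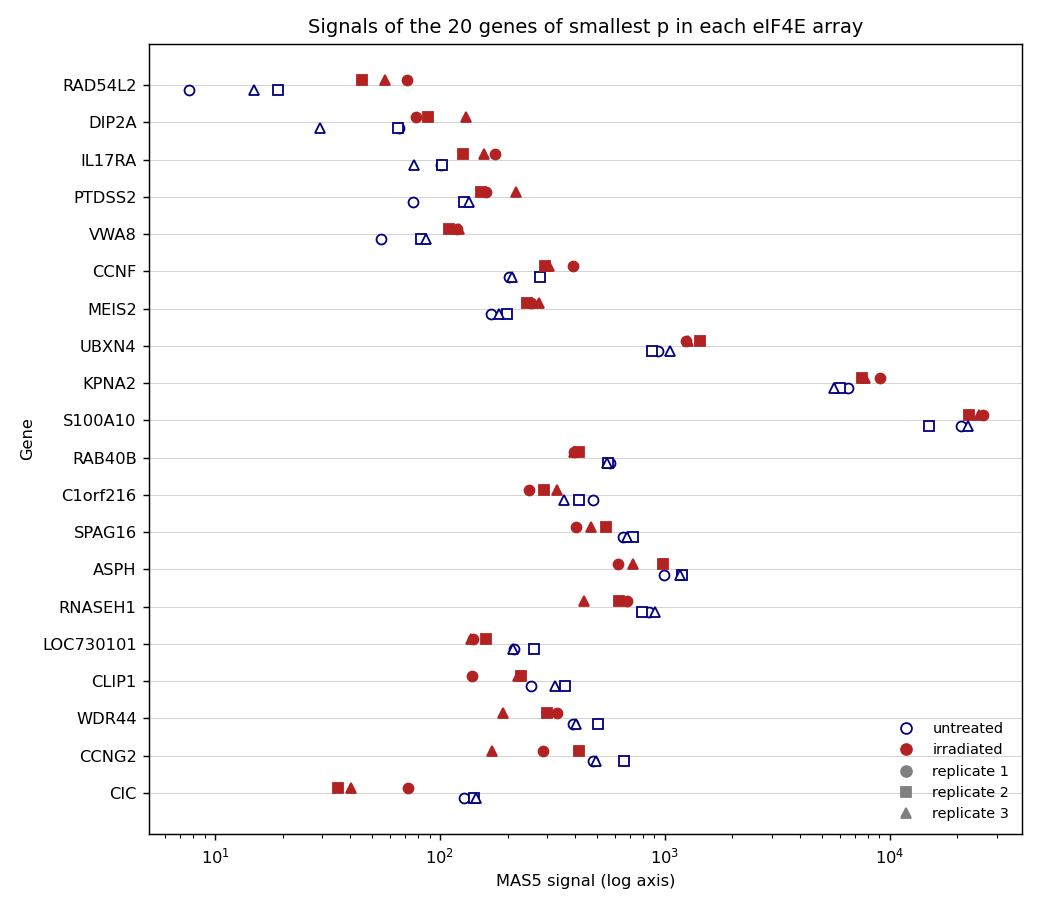
MAS5 signal (horizontal, log axis) of the 10 genes of smallest p in each direction in the 3 untreated (open) and 3 irradiated (red) eIF4E arrays, with the marker shape giving the replicate number. The irradiated and untreated arrays do not overlap for any of the 20 genes, which were picked by their p; none passed the adjusted threshold.

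Size alone picked 5 genes beyond 2-fold, and 3 of them had overlapping arrays. CFAP70, a protein of motile cilia, had 268, 186 and 65.2 in the untreated arrays and 14.7, 17.9 and 107 in the irradiated arrays, so that irradiated replicate 3 lay above untreated replicate 3. TSC22D4, a leucine zipper protein, and RRP1, a protein of ribosome assembly, also overlapped. The other two were RAD54L2 and CIC. A difference beyond 1.5-fold in each of the 3 pairs was met by CCNG2 and CIC downward and by RAD54L2 upward, the last from untreated signals at the floor. These genes beyond 2-fold were named after their values were seen.

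Same-numbered arrays gave 3 separate estimates of the effect, and they shared little. The sign was the same in all 3 pairs for 1992 genes (27.8%), 1049 higher and 943 lower. Over the 7178 genes the differences of pair 1 and pair 2 correlated at -0.08, those of pairs 1 and 3 at 0.10 and those of pairs 2 and 3 at 0.15, as a description, since genes are not independent replicates. Between 288 and 449 genes differed by more than 1.5-fold within a single pair.

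Genes of the DNA damage response gave no call. ATM, the kinase that signals double strand breaks, had 63.7, 92.7 and 64.5 in the untreated arrays and 89.6, 86.3 and 95.0 in the irradiated arrays, a difference of 0.26 (SE 0.31) with overlap. Its other probe sets differed by -0.19 and 0.17. BRCA1, a mediator of homologous recombination, had 182, 253 and 246 in the untreated arrays and 303, 263 and 229.5 in the irradiated arrays, a difference of 0.22 (SE 0.20). Irradiated replicate 1 was highest and irradiated replicate 3 lay within the untreated range. The other, dimmer probe set of BRCA1 differed by -0.13. CHEK1, the checkpoint kinase below ATR, differed by 0.14 (SE 0.16) and PRKDC, the catalytic subunit of DNA-dependent kinase, by -0.12 (SE 0.26). The overlap of the groups held for all 4 genes.

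Of 33 tested genes of homologous recombination and the Fanconi anaemia pathway, 0 were called by limma, 0 had an unadjusted p under 0.05, and 21 lay above zero with a median of 0.09 against 0.00 over all genes and 0.11 for the list within IgG. FANCC, a core subunit of the Fanconi ligase, was highest at 0.40 (SE 0.21), with its groups overlapping. FANCF, another core subunit, was lowest at -0.37 (SE 0.29), and its irradiated arrays, at 49.3 to 63.2, lay below its untreated arrays, at 68.2 to 80.4. In end joining and break signalling 6 of 23 genes had non-overlapping arrays, against 9.40% of all genes, and 0 were called. XRCC6, the Ku70 subunit that caps broken ends, had 4354, 4601 and 4610.4 in the untreated arrays and 6177, 5055 and 6385 in the irradiated arrays, a difference of 0.37 (SE 0.18). Every irradiated array was higher, with replicate 2 the least so. XRCC5, the Ku80 partner, differed by 0.16, PAXIP1 by 0.22 and UIMC1 by 0.15, also without overlap. XRCC4, which joins ends with ligase 4, lay lower at -0.28 (SE 0.19), and BABAM1 at -0.12.

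Checkpoint and excision repair genes gave no call either. CDC25C, the phosphatase that releases mitotic entry, had 634, 598 and 503 in the untreated arrays and 841, 677 and 705 in the irradiated arrays, a difference of 0.35 (SE 0.17), and PKMYT1, a kinase that opposes it, differed by 0.26 (SE 0.21), both without overlap. With TOPBP1 these were 3 of 22 checkpoint genes whose arrays did not overlap, all higher (13.6% against 9.40% of all genes), and 0 were called. Among 35 excision and mismatch repair genes 0 had non-overlapping arrays (0% against 9.40% of all genes) and 0 were called or had an unadjusted p under 0.05. Their median was 0.02.

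**Figure D3:**
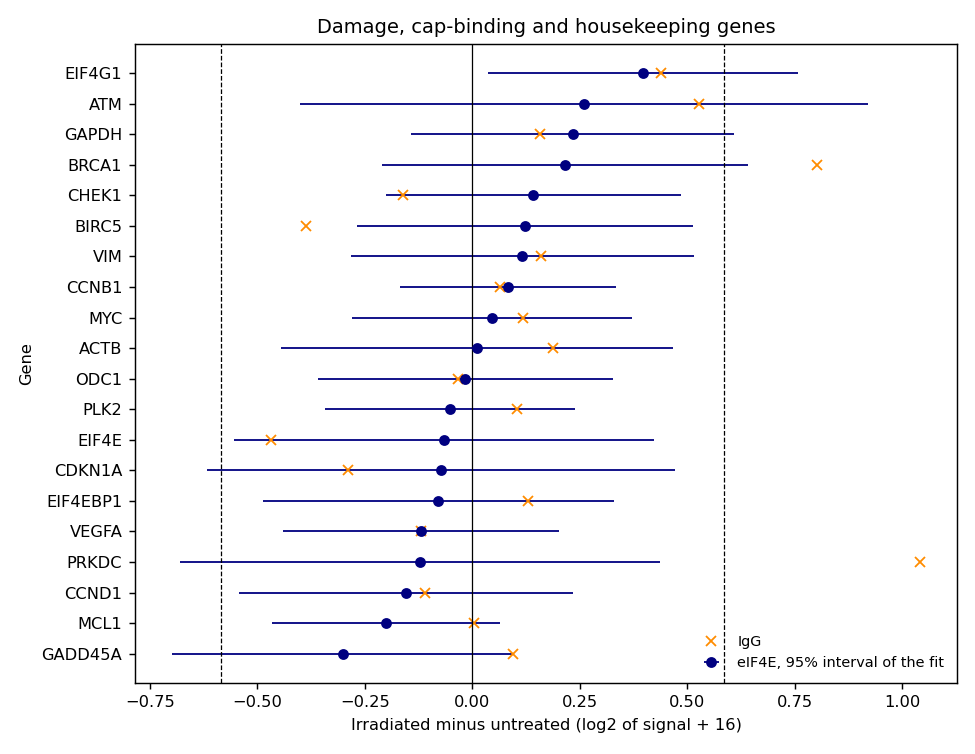
Log2 difference between irradiated and untreated arrays of 20 damage, cap-binding, growth and housekeeping genes within eIF4E precipitates (points with the 95% interval of the 12-array limma fit) and within IgG precipitates (crosses), with dashed lines at 1.5-fold. The interval of EIF4G1 lies above zero before adjustment, all others include zero, and PRKDC and BRCA1 differed more within IgG than within eIF4E.

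Messengers for DNA replication leaned upward without a call. Of 54 tested, 38 lay above zero with a median of 0.07, 6 had non-overlapping arrays upward and 2 downward (14.8% against 9.40% of all genes), and limma called 0, with 0 at an unadjusted p under 0.05. RRM1, the large subunit of ribonucleotide reductase, had 3148, 3226 and 2933 in the untreated arrays and 4520.4, 3522 and 3287 in the irradiated arrays, a difference of 0.27 (SE 0.21). All irradiated arrays were higher, but replicate 1 alone stood far above the untreated range. WDHD1, a replisome scaffold, lay the other way at -0.42 (SE 0.21). The pair medians of the list were 0.07, -0.03 and 0.11, so pair 2 differed in sign, and the median within IgG was 0.08. Of 51 mitosis genes 32 lay above zero with a median of 0.04, and 5 had non-overlapping arrays (9.80% against 9.40% of all genes). CCNF was the member at an unadjusted p under 0.05. CCNB1, cyclin B1, differed by 0.08 (SE 0.12), with an interval from -0.17 to 0.33.

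The targets of p53 gave no common direction. CDKN1A, the cyclin kinase inhibitor p21, had 1071, 794 and 759 in the untreated arrays and 1166, 602 and 787 in the irradiated arrays, a difference of -0.07 (SE 0.26) with overlap. GADD45A, a stress sensor of damage, had 1402, 1433 and 1419.8 in the untreated arrays and 1548, 935 and 1047 in the irradiated arrays, a difference of -0.30 (SE 0.19), and only irradiated replicate 1 lay above the untreated range. PLK2 differed by -0.05 (SE 0.14). Of 22 tested targets 10 lay above zero and 12 below, and the median was -0.01. CCNG1, at 0.12, and CCNG2 were the members with non-overlapping arrays, in opposite directions (9.09% against 9.40% of all genes). MDM2 and GDF15 were under the filter, with signals of 4.04 to 32.7 and 1.64 to 3.10.

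BCL2L1, which encodes the survival protein BCL-XL, was the apoptosis regulator with the lowest p. Its signals were 1164, 1084 and 1339 in the untreated arrays and 689, 912 and 1044 in the irradiated arrays, a difference of -0.45 (SE 0.17). The irradiated arrays all lay below the untreated arrays, and the gene was not called. These values come from 1 of the 3 probe sets of BCL2L1. MCL1, a related survival protein of short half-life, had 2416, 2122 and 2050.5 in the untreated arrays and 2057, 1794 and 1871 in the irradiated arrays, a difference of -0.20 (SE 0.13), lower in each pair but with overlap. Other MCL1 probe sets above the filter went the other way, at 0.03 and, on a dim one, 0.57. BIRC5, survivin, differed by 0.12 (SE 0.18), and by -0.06 and 0.02 on its other probe sets. Of 31 apoptosis regulators 15 lay above zero and 16 below, with a median of -0.04 against 0.00 over all genes.

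Among the stress lists the immediate early and heat shock genes had the lowest medians of the lists with at least 10 tested members, and neither held a call. Of 29 cytosolic heat shock genes 19 lay below zero with a median of -0.06, 4 had non-overlapping arrays downward and 1 upward, together 17.2% against 9.40% of all genes. The pair medians were all below zero, and the median within IgG was 0.02. CDC37, which loads kinases onto HSP90, had 1896, 1894 and 1855 in the untreated arrays and 1597, 1283 and 1364 in the irradiated arrays, a difference of -0.41 (SE 0.25) without overlap. HSF1, the heat shock transcription factor, lay lower at -0.43 (SE 0.24) and HSP90AB1, the constitutive HSP90, higher at 0.19 (SE 0.13), both without overlap. Of 24 immediate early genes 16 lay below zero with a median of -0.08, and JUNB, an AP-1 subunit, had 171, 215 and 206 in the untreated arrays and 161, 106 and 152 in the irradiated arrays, a difference of -0.47 (SE 0.37) without overlap. Medians were 0.06 for 14 NF-kB inducible genes, 0.02 for 34 interferon-stimulated genes and -0.04 for 22 genes of the integrated stress response, and limma called 0 in each. IFI27, an interferon-stimulated gene, had 2054, 1987 and 1993 in the untreated arrays and 1591, 1633 and 1532 in the irradiated arrays, a difference of -0.34 (SE 0.17), with no overlap.

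Within the cap-binding machinery EIF4G1 was the member at an unadjusted p under 0.05. Its signals were 1028, 1359 and 1066 in the untreated arrays and 1436, 1485 and 1611 in the irradiated arrays, a difference of 0.40 (SE 0.17) with an unadjusted interval from 0.04 to 0.76. All irradiated arrays exceeded all untreated arrays, its other probe set differed by 0.28, and the IgG precipitates differed by 0.44, also without overlap. The adjusted p of EIF4G1 by limma was 1.00, and 0.648 with 3 pairs. EIF4E itself had 1203, 1129 and 1031 in the untreated arrays and 1118, 1149 and 949 in the irradiated arrays, a difference of -0.07 (SE 0.23). The other probe sets of EIF4E differed by 0.03 and 0.07. EIF4EBP1, the inhibitor, had 2622, 2387 and 2760.2 in the untreated arrays and 2524, 2379 and 2442 in the irradiated arrays, a difference of -0.08 (SE 0.19), and both genes' groups overlapped. Of 20 tested genes of the complex and its regulators 10 lay above zero and 10 below. RPS6KB1, the S6 kinase below mTOR, was lowest at -0.31 (SE 0.25) without overlap. EIF4A3, an exon junction helicase related to EIF4A1, was higher by 0.24, also without overlap.

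Messengers often named as sensitive to eIF4E did not move as a group. Of 29 tested, limma called 0, 13 lay above zero and 16 below, and the median was -0.02. MYC, the growth transcription factor, had 1219.9, 1145 and 1160.1 in the untreated arrays and 1334, 1191 and 1124 in the irradiated arrays, a difference of 0.05 (SE 0.15) with a 95% interval from -0.28 to 0.37. CCND1, cyclin D1, had 1822, 2021 and 1697 in the untreated arrays and 1995, 1589.9 and 1426 in the irradiated arrays, a difference of -0.15 (SE 0.18). ODC1, the first enzyme of polyamine synthesis, had 5658, 5021 and 5445 in the untreated arrays and 5766, 5612 and 4618 in the irradiated arrays, a difference of -0.02 (SE 0.16). The groups overlapped for all 3 genes, and each interval lay within 1.5-fold. VEGFA, the vascular growth factor, differed by -0.12 (SE 0.15), while its other probe sets above the filter differed by 0.39 and 0.19. BCL2L1 and RNASEH1 were the members at an unadjusted p under 0.05, both lower.

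Cytosolic ribosomal protein messengers had the highest median of the lists with at least 10 tested members. Of 53 tested, 46 lay above zero with a median of 0.12. Non-overlapping arrays were found for 2 upward (RPL27A at 0.42 and RPS9 at 0.08) and 1 downward (RPL22 at -0.22), 5.66% against 9.40% of all genes. Limma called 0, with 0 at an unadjusted p under 0.05. RPL3, a core protein of the large subunit, had 11312, 9451 and 9728 in the untreated arrays and 14147, 10853 and 12593 in the irradiated arrays, a difference of 0.30 (SE 0.16). Each irradiated array of RPL3 lay above its partner, though the groups overlapped. The pair medians were -0.01, 0.27 and 0.11, and without untreated replicate 2 the median was 0.01. For 45 of the 53 the interval lay within 1.5-fold.

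The same lean was seen in other bright genes. Of 151 genes with a mean signal over 10000, 139 lay above zero with a median of 0.12, and without the ribosomal proteins it was 102 of 111 with a median of 0.11. The 331 genes between 5000 and 10000 had a median of 0.05, and the 6696 dimmer genes -0.01. In the pairs, the genes over 10000 had medians of 0.01, 0.24 and 0.13. After quantile normalization, which gives all arrays the same distribution, 70 of the 151 lay above zero with a median of -0.01, and the ribosomal proteins had 24 of 53 above zero and a median of -0.01. LDHA, PRDX1, PABPC1 and GAPDH are examples of bright messengers outside the ribosome, at 0.26, 0.18, 0.25 and 0.23. The median of the ribosomal proteins thus turned in sign under quantile normalization, as did that of the bright genes as a whole. That step sets the brightest values of all arrays equal, so a shift common to them could not remain. Of the ribosomal proteins 40 had a signal over 10000. The result after quantile normalization is therefore no test of this lean. Small list medians were unsteady in general: over 14 alternative settings 22 of 30 lists changed sign at least once, the eIF4F list in 8 settings, p53 targets in 6 and apoptosis regulators, interferon-stimulated genes and growth signalling in 5 each. The 8 that did not were homologous recombination, DNA replication, mitosis, immediate early, heat shock, proteasome, glycolysis and mesenchymal genes.

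**Figure D4:**
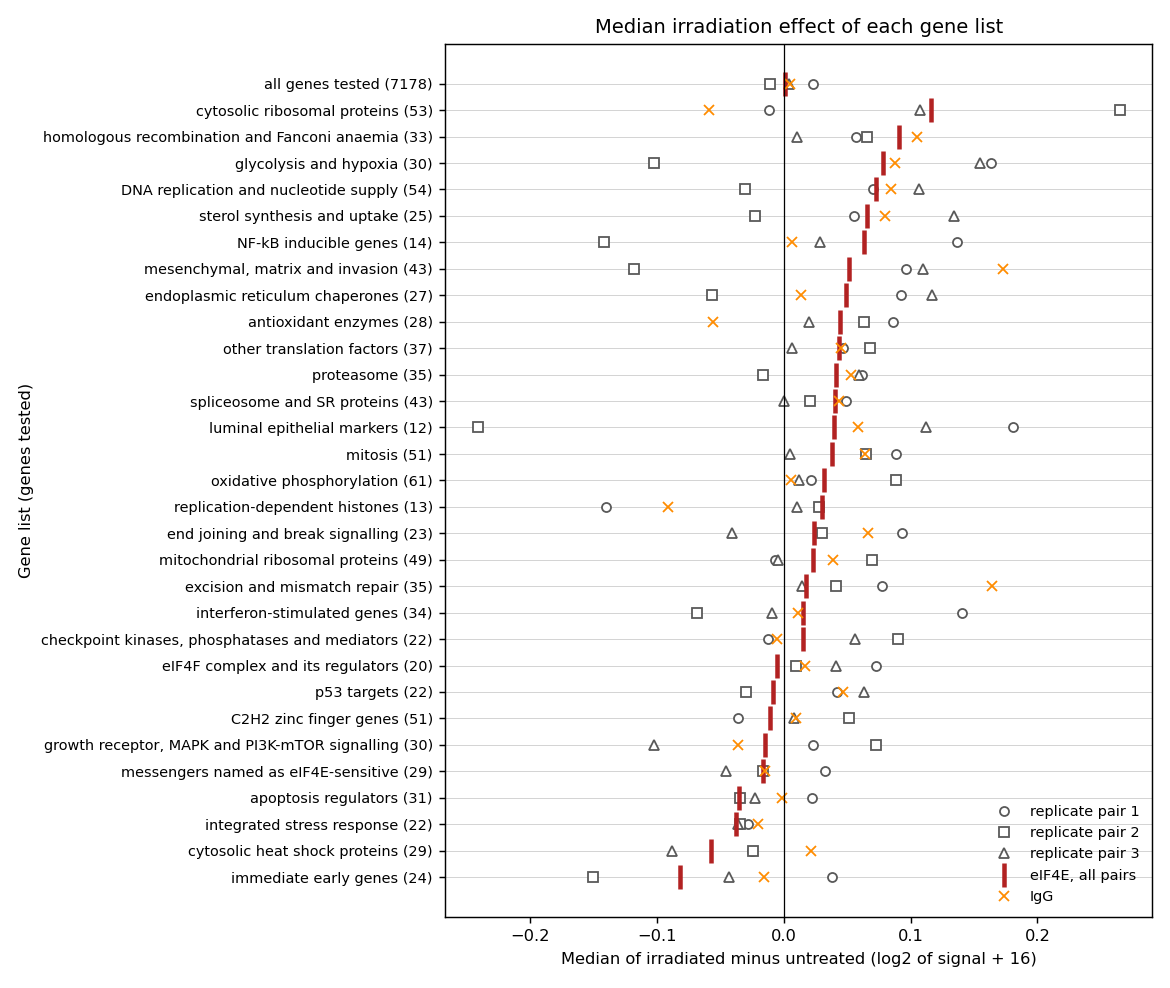
Median log2 difference between irradiated and untreated arrays of each gene list with at least 10 tested members (number tested in brackets) within eIF4E precipitates (red bars), in each same-numbered pair (open markers) and within IgG precipitates (crosses). Medians lie between -0.08 and 0.12, and for many lists the 3 pairs lie on both sides of zero, pair 2 of the ribosomal proteins being the farthest at 0.27. Over 14 alternative settings the median changed sign at least once for 22 of the 30 lists. The ribosomal proteins did so under quantile normalization, which by its design removes a shift common to the brightest genes.

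Organelle and housekeeping messengers were held within narrow bounds. Of 61 oxidative phosphorylation genes the median was 0.03 and 56 had an interval within 1.5-fold, of 35 proteasome genes the median was 0.04 and 34 had such an interval, and of 49 mitochondrial ribosomal proteins the median was 0.02 and 44 had one. MRPL19, of the large mitochondrial subunit, had 1316, 1593 and 1281 in the untreated arrays and 1082, 1159.8 and 1111 in the irradiated arrays, a difference of -0.31 (SE 0.20) without overlap. MRPL40, of the same subunit, was higher by 0.15 (SE 0.14). In total 8 of the 49 (16.3%, against 9.40% of all genes) had non-overlapping arrays, 5 upward and 3 downward. ACTB, cytoskeletal actin, had 15344, 14092 and 17077 in the untreated arrays and 16039, 14766 and 15958 in the irradiated arrays, a difference of 0.01 (SE 0.22).

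C2H2 zinc finger genes, many of them dim transcriptional repressors, were spread more widely than the bright organelle lists. Their median untreated signal was 218, against 466 over all genes. Of 51 tested, 24 lay above zero, the median was -0.01, and 6 had non-overlapping arrays upward and 3 downward (17.6% against 9.40% of all genes). ZNF292 had 58.6, 65.9 and 28.3 in the untreated arrays and 81.6, 73.1 and 122 in the irradiated arrays, a difference of 0.72 (SE 0.29), and ZNF107 differed by 0.56 (SE 0.27), both without overlap. ZNF217, a regulator amplified in breast cancer, had 536, 609 and 579.8 in the untreated arrays and 444, 312 and 562 in the irradiated arrays, a difference of -0.41 (SE 0.19) with overlap. An interval within 1.5-fold was reached by 29 of the 51. Mesenchymal and invasion genes had a median of 0.05 over 43 tested, glycolysis and hypoxia genes 0.08 over 30, sterol genes 0.07 over 25 and growth signalling genes -0.02 over 30, with 0 calls by limma in each. COL6A3, a collagen VI chain, was the lowest of the invasion genes at -0.66 (SE 0.41), with overlap.

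Several control measures of the arrays were higher after irradiation in each pair. The Alu probe set, which reads a repeat found in many nuclear transcripts, had 16839, 13482 and 14963 in the untreated arrays and 18476, 16569 and 17728 in the irradiated arrays, a ratio of 1.17. The 18S ribosomal RNA probe set of the 5' end had 8480, 2325 and 5104 against 9747, 5705 and 7601, a ratio of 1.61, and that of 28S had 434, 244 and 300.3 against 602, 371 and 598, a ratio of 1.61. The groups overlapped in all 3, and exact two-sided permutation tests gave p = 0.2, p = 0.3 and p = 0.2, where 3 against 3 arrays allow no p below 0.1. Untreated replicate 2 was the lowest of the 6 arrays in each. In the IgG precipitates these ratios were 1.00, 0.701 and 0.782. The 3' to 5' ratio of ACTB, a measure of RNA integrity, was 1.33 to 1.53 over the 6 arrays, with irradiated replicate 1 highest. The part of these measures in the differences above was not tested.

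**Figure D5:**
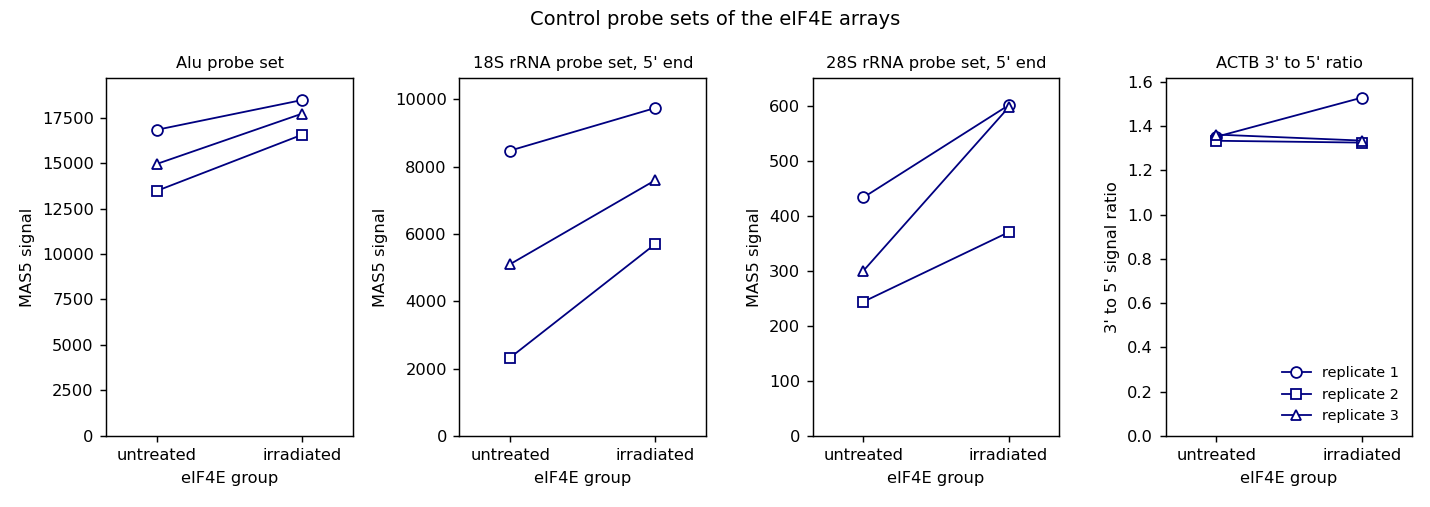
Control probe set signals and the ACTB 3' to 5' ratio (vertical axes, each starting at 0) in untreated and irradiated eIF4E arrays, with same-numbered arrays joined by lines. The Alu, 18S and 28S signals are higher in the irradiated array of every pair, and the ACTB ratio is higher in replicate 1 only.

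Markers of leukocytes, liver, neuron or muscle and luminal epithelium were summed on each array. Of 20 leukocyte markers 1 was above the filter, of 21 liver markers 0, of 20 neuron or muscle markers 2 and of 22 luminal markers 12. The summed signal of 20 leukocyte markers was 328 to 387 in the untreated and 487 to 560 in the irradiated arrays, a ratio of 1.43 without overlap and with p = 0.1 by the exact permutation test, the smallest it can give. CD14 was the member above the filter, and PTPRC, the common leukocyte antigen, lay at 22.1 to 30.4. Of the 20 leukocyte markers 6 were higher and 1 lower in all 3 pairs. Non-overlapping arrays were found for 5 of the 20, CD2, CD4, CD8A, ITGAX and PTPRC, all upward and all under the filter. The share of 9.40% of all genes tested covers genes above the filter, so it is not a like measure for them. CD8A lay at 4.96 to 7.39 untreated and 32.4 to 79.7 irradiated, while LYZ was lower in each pair. Summed liver markers were 352 to 493, summed neuron or muscle markers 1600.2 to 2044, of which MBP alone gave 1129 to 1435, and summed luminal markers 18299 to 24737, led by the keratin KRT18, each with overlap. The part of the leukocyte markers in the differences above was not tested. Hybridization controls set replicate 1 apart in both groups, with a bioB to bioC ratio of 0.443 and 0.404 against 0.0269 to 0.0523 in the others, and leaving out number 1 in every group gave 0 calls.

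The IgG precipitates gave the background of the same treatment. Within them limma called 0 of 7178 genes (0%), 475 (6.62%) had an unadjusted p under 0.05 and 623 (8.68%) had non-overlapping arrays, with 296 genes beyond 1.5-fold against 35 within eIF4E. The irradiation effects of both antibodies, which share no arrays, correlated at 0.09 over genes, as a description. In the test of the difference of both effects 0 genes (0%) were called by limma and 216 (3.01%) had an unadjusted p under 0.05. Arrays were apart in both antibodies for 35 genes (0.488%) in the same direction and 24 (0.334%) in opposite directions. KPNA2 was among the former, with 0.37 within IgG, and so was LOC730101 with -0.49. PRKDC, at -0.12 within eIF4E, differed by 1.04 within IgG without overlap, and the test of that difference did not pass.

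Limiting the test to genes higher with eIF4E than with IgG, at a limma adjusted p under 0.05 and any size of difference, did not give calls. Of 2334 genes higher with eIF4E than with IgG, 0 were called by limma when adjusted among themselves, 19 had an unadjusted p under 0.05, and 88 had non-overlapping arrays upward and 140 downward (9.77% against 9.40% of all genes). Their median difference was -0.02, and 1624 (69.6%) had an interval within 1.5-fold. The 2744 genes lower with eIF4E than with IgG had 158 non-overlapping upward and 106 downward (9.62%), 46 at an unadjusted p under 0.05, 0 calls by limma and a median of 0.02. Both classes rest on a comparison of antibodies whose control measures also differed. Of 664 tested probe sets with no gene name 0 were called and 16 had an unadjusted p under 0.05. Of 579 with several gene names 0 were called and 13 had an unadjusted p under 0.05.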

How the data were processed

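RNA precipitated with eIF4E or IgG was hybridised to 12 arrays, grouped by their titles. The deposited values are intensities, 1 MAS5 signal a probe set and array, per the submitters' processing notes. No source used here gives the MAS5 version. They were used as deposited. Of 22277 probe sets 62 were controls, and of the rest 19064 had 1 gene symbol in the platform annotation, 1043 several and 2108 none. The symbols of 19052 were updated through gene identifiers to RefSeq (GRCh38.p14), used for names only. Each of 11963 genes was represented by its brightest probe set, with _x_at sets taken only for genes lacking any other, and 7178 genes with a mean log2 signal over the 12 arrays at or above the 40th percentile (a signal of 57.4) were tested.

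Differences were fitted on log2(signal + 16), a scale that understates the change of dim genes, with lmFit and trended eBayes of limma 3.58.1 under R 4.3.3, as 4 group means over 12 arrays, adjusted with Benjamini-Hochberg over the 7178 genes at 0.05. The fit was run on simulated data with planted changes, as a check that it recovered their sizes. The simulated arrays were independent, without the shared deviations of same-numbered arrays described below. The number of arrays, 3 a group, limits the precision. The labels do not state that replicate numbers pair the arrays. Over genes, the deviations of same-numbered untreated and irradiated eIF4E arrays from their group means correlated at 0.374, 0.208 and 0.181, so they were taken as pairs in a further fit on this evidence from the data. Untreated 2 with irradiated 3 correlated at 0.118, and untreated 3 with irradiated 2 at 0.111. Number 1 with the other numbers correlated at -0.26 to -0.22. A replicate 1 set apart in both groups could give the same signs.

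The comparison, the gene lists and the rule for naming genes were chosen with earlier results of these data known. The rule takes called genes, or where fewer than 10 were called in a direction the 10 of smallest p, then the top and bottom 2 members or fewer of each of 33 lists and 24 fixed genes. List members described by non-overlapping arrays, and genes picked by size alone, were named after their values were seen. Alternatives changed the pseudocount, filter, scaling, weights, probe sets, arrays and pairing. Control measures had exact permutation tests, two-sided. Figures were drawn with matplotlib 3.10.9.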

Additional observations from a re-analysis of the deposited data

Results flagged for a closer look

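For DIP2A the irradiated arrays lay wholly above the untreated arrays within eIF4E precipitates, at a log2 difference of 0.76, and wholly below them within IgG precipitates, at -0.86, and the difference of both effects was 1.62 (SE 0.38). For BCL2L1 the order was the other way, at -0.45 within eIF4E and 0.27 within IgG, and the difference was -0.72 (SE 0.24). Neither difference passed the limma test adjusted over all 7178 genes (adjusted p = 0.999 for both). Of these genes 24 (0.334%) had arrays apart in opposite directions, and 35 (0.488%) in the same direction. DIP2A was named for its small p within eIF4E and has 1 probe set here, an _x_at set. BCL2L1 has 3 probe sets, of which 1 represents it here.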

How the results depend on the processing

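The count of 0 genes within eIF4E precipitates held in 21 of 22 alternatives, including each array left out in turn (0 to 0) and the replicate block (0 with 6 arrays, 0 with 12). Array quality weights, which ran from 0.277 to 4.49, called 2 genes. Within IgG precipitates the count of 0 became 1 with a pseudocount of 1 and 1 without a variance trend (CCDC106 each time), 2 with probe-set means (CCDC106 and GABPB1-IT1) and 0 to 1 with an array left out, CTSV being called without untreated replicate 1. The test of the difference of both effects gave 0 calls in 26 alternatives, and probe sets without a gene gave 0 in 4. Differences of the 20 leading genes kept their sign in every setting that tested them. These genes were picked by p from the same arrays, which the settings reuse, so this is no independent check. Of the 152 named genes, none of which was called in the 12-array fit, up to 13 changed sign (with probe-set means), 2 under quantile normalization and 2 to 8 with an array left out. The alternative limited to genes higher with eIF4E was chosen after seeing the data. Brightness limits the dim genes. The causes of these changes were not tested.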
